A study of Mus musculus with 2 samples.

Results

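Müller glia are the radial glial cells that span the retina. In the 2 libraries they numbered 271 of 21193 kept cells: 169 of 10230 in the wild type library and 102 of 10963 in the db/db library. A kept cell had at least 200 genes and at most 20% of its UMIs (unique molecular identifiers, 1 per captured RNA molecule) from mitochondrial genes. A kept cell was taken as Müller glia when Glul, Rlbp1, Slc1a3, Dkk3, Aqp4, Clu, Car14, Sox9 and Abca8a together gave at least 1% of its UMIs and at least 20 UMIs. Cells with 10 or more UMIs of the microglial genes C1qa, C1qb, C1qc, Ctss and Tyrobp were left out, as were cells with 2 or more UMIs of the pigment epithelial genes Rpe65, Best1 and Lrat. The members were thus chosen by the measured levels of those 9 marker genes, which are given as a description only.

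The study set retinas of db/db mice (C57BLKS-Leprdb/db, called a type 2 diabetes model and a Lepr knockout by the submitters) beside those of control mice (C57BLKS-Leprwt/wt, called m/m in the design), all 13 weeks old and untreated. Each genotype gave 1 library from 2 mice, both eyes, digested with enzymes and captured with the 10x 3′ version 3.1 chemistry. The 2 mice of a library cannot be told apart, so no value below has a replicate. No test was made: each 95% interval covers counting error only, and a difference between the libraries is a difference between 2 libraries.

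Müller glia clear glutamate and ammonia from around neurons, buffer potassium and water, bind retinoids for the visual cycle, shuttle lactate and lipids, and seal the outer limiting membrane. After injury or in diabetes they are known to enter gliosis, in which intermediate filament and cytokine-signalling genes are induced. They are also known as a retinal source of angiogenic and trophic factors.

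Genes that the rule did not use matched the label. All 21 further Müller markers were higher in the selected cells than in the other kept cells, in both libraries. Levels are CPM, the UMIs of a gene per 1000000 UMIs of the cells in question. Apoe, the main lipid carrier of glia, stood at 9339 CPM in wild type and 9549 CPM in db/db Müller glia, against 136 and 186 CPM in the other kept cells. Kcnj10, the potassium channel of Müller end feet, stood at 184 and 196 CPM and was found in 99 and 65 members. Hes1, a Notch target, stood at 835 and 913 CPM against 6.21 and 4.52 CPM. The 21 markers together made up 2.47% of wild type and 2.63% of db/db Müller UMIs.

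**Figure D1:**
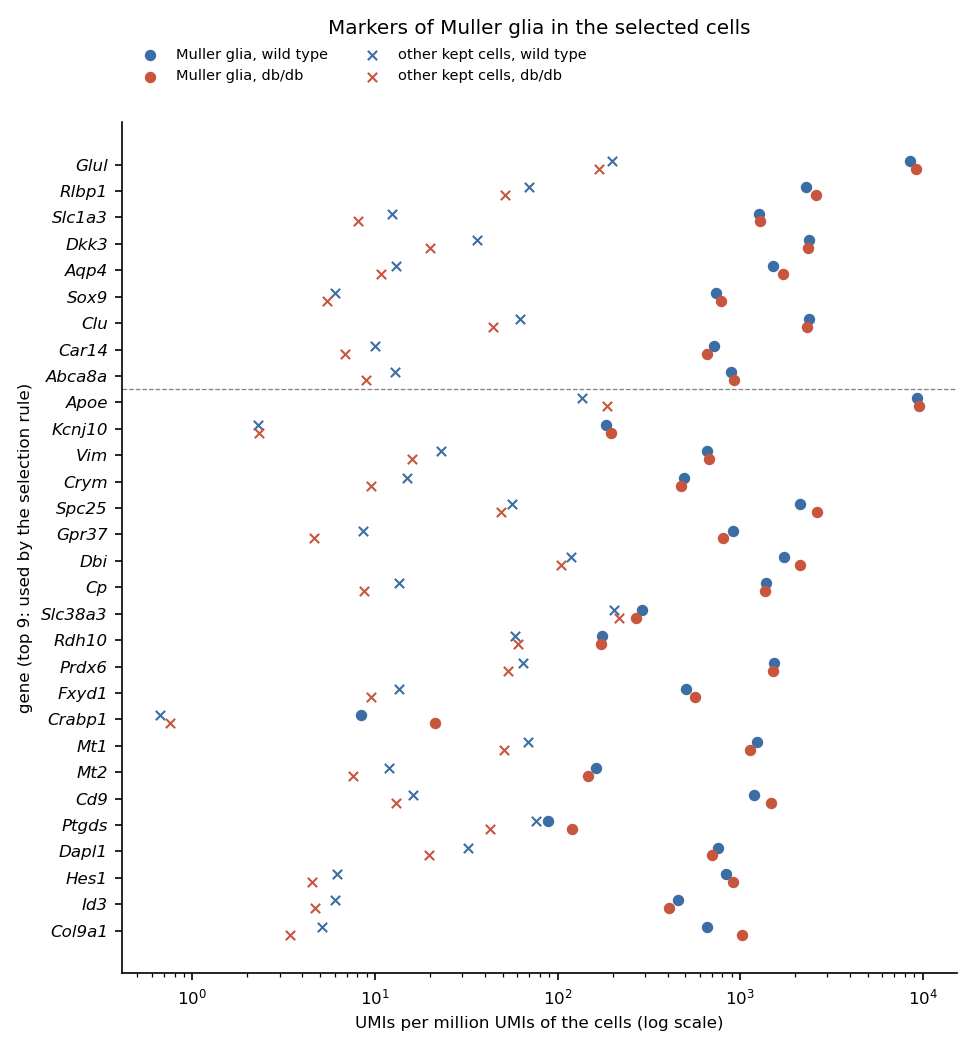
Levels of the 9 rule markers (above the dashed line) and of 21 further Müller markers, in CPM on a log axis; filled circles are the selected cells and crosses the other kept cells of each library. Every circle lies to the right of the cross of its own library, and the wild type and db/db circles of most genes lie close together.

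Median depth was close between the libraries, but more db/db cells were shallow. Median UMIs per cell were 5727 in wild type and 5792 in db/db, with lower quartiles of 4131 and 2646, and median genes per cell were 2578 and 2552, while the other kept cells had median UMIs of 2295 and 2039. The mitochondrial share had a median of 2.21% and 2.16%, and the 12 rod markers a median of 0.851% and 0.850% of a cell's UMIs. Between 1 and 1.25% of UMIs from the rule markers there were 10 wild type and 7 db/db members, and between 0.75 and 1% there were 15 and 3 cells outside the rule. With 20 to 24 marker UMIs there were 10 and 12 members, and with 15 to 19 there were 25 and 10 cells outside the rule. Under 2000 UMIs lay 22 of 169 wild type and 21 of 102 db/db members, whose median mitochondrial shares of 6.62% and 4.29% were above those of the deeper members. The libraries shared 26 barcodes, none of them among the members.

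Some members carried markers of other cell types, which bears on results below. Rod markers had the largest share, 1.25% of wild type and 1.31% of db/db UMIs, and passed 2% of UMIs in 41 and 24 members. Bipolar cell markers reached 10 or more UMIs in 21 of 169 wild type members but in 6 of 102 db/db members, and summed to 1041 UMIs against 255 UMIs, a log2 ratio of db/db to wild type of -1.09 (95% interval -1.30 to -0.89). A single db/db member held all 3 UMIs of Pax2, the astrocyte transcription factor. That cell also held 9 of the 11 db/db UMIs of Gfap, 17 of 21 of S100b and 7 of 7 of Pdgfra. Pax2 had no UMI in wild type members, 1 of which held 22 of the 24 wild type UMIs of Gfap. The 10 astrocyte markers summed to 782 and 545 UMIs (log2 ratio 0.42, 0.26 to 0.58), of which Aldoc, a glycolysis gene that Müller glia share, gave 585 and 411. Amacrine, ganglion, microglial and pigment epithelial markers together stayed at or below 0.0654% of UMIs each in both libraries, and in the amacrine list Pax6, which Müller glia also express, gave 581 of 660 and 354 of 367 UMIs. Endothelial markers other than Flt1 and Kdr were at or near 0: Pecam1, Cdh5, Tie1 and Tek had no UMI in either library. Flt1 stood at 749 and 833 CPM and Kdr, the main VEGF receptor, at 844 and 654 CPM.

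Müller glia made up 1.65% of kept cells in wild type (exact binomial 95% interval 1.41 to 1.92) and 0.930% in db/db (0.759 to 1.13). The ratio of db/db to wild type was 0.563 (0.436 to 0.724). Rods fill most of both libraries, so the share was also taken among cells below a limit of rod marker UMIs. A limit of 5% leaves in many of the other kept cells, whose rod shares had lower quartiles of 4.50% and 4.75%. Their medians were 5.61% and 5.63%. Among kept cells with under 5% rod marker UMIs the shares were 4.56% and 2.87%, a ratio of 0.630, and among those with under 3% they were 11.3% and 8.58%, a ratio of 0.758 (0.580 to 0.986). Fewer Müller glia were thus captured per cell in the db/db library under each denominator, by a margin that shrank as the rod limit was lowered.

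For expression, UMIs were summed over the members of each library (1074175 in wild type, 560905 in db/db), and the 5816 genes with at least 50 UMIs over both libraries were called measured. The median log2 ratio over these genes was 0.0090. A log2 ratio of at least 1 (2-fold) was reached by 21 genes, 0.361% of those measured, and of at most -1 by 67 genes, 1.15%. Most of these had few counts: 17 of the 21 and 51 of the 67 had under 100 UMIs. The 50 UMIs are summed over unlike totals, so a sparse gene passes more readily when high in wild type than in db/db. Sik1, with 53 wild type and 4 db/db UMIs, was measured through wild type alone. The numbers 21 and 67 are therefore no measure of a tilt between the libraries. Of all measured genes, 51.2% lay above 0 and 48.8% below 0, and 5.76% had an interval above 0 and 5.38% one below 0. These shares are the background for every list below.

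**Figure D2:**
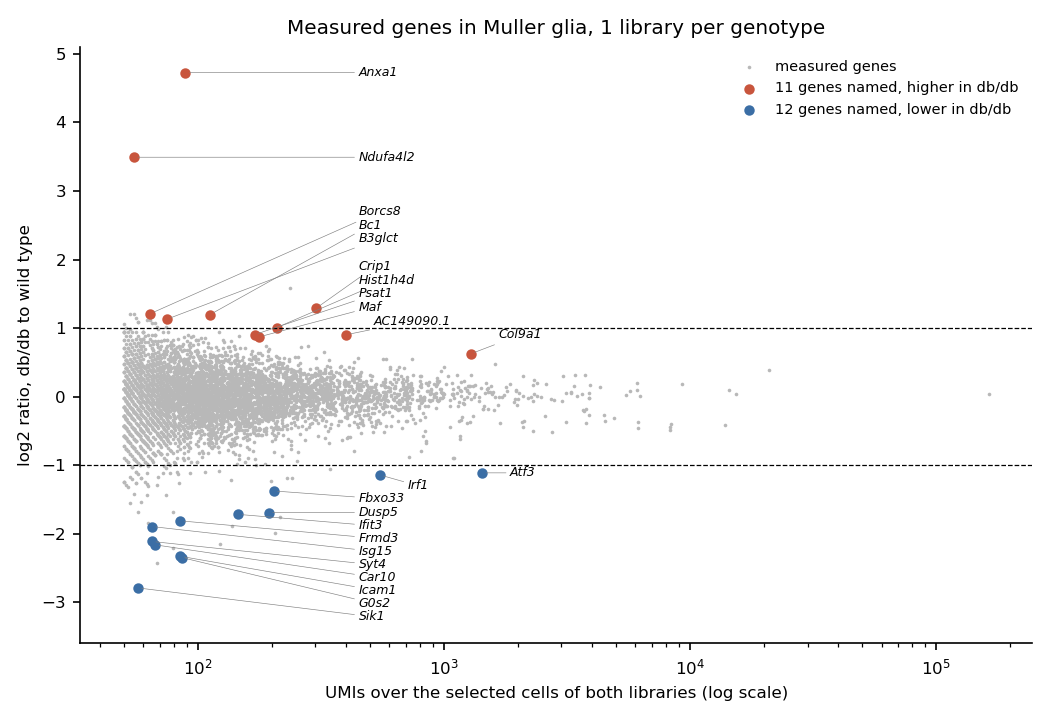
Log2 ratio of db/db to wild type for the 5816 measured genes against their UMIs over the 271 cells (log axis); coloured points are named genes from the 12 highest and 12 lowest by the interval bound nearest 0, and dashed lines mark a 2-fold difference. Anxa1 and Ndufa4l2 stand above all other genes, while Atf3 (1151 and 278 UMIs) and Irf1 (444 and 105 UMIs) lie farthest right among the 12 lowest.

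Genes of glutamate, GABA, glycine and retinoid handling were described with the rule markers Glul, Slc1a3 and Rlbp1 given apart, since the cells were chosen by them. Glul, the glutamine synthetase that detoxifies glutamate, stood at 8568 CPM in wild type and 9182 CPM in db/db (log2 ratio 0.10, 0.05 to 0.15) and was found in all 169 and all 102 members. Slc1a3, the glutamate transporter, stood at 1274 and 1280 CPM, and Rlbp1, the retinaldehyde-binding protein, at 2304 and 2598 CPM. Of the 9 measured genes of glutamate and ammonia handling outside the rule, 4 lay above 0 and 5 below, with a median of -0.048. Slc1a2, another glutamate transporter, stood at 492 and 565 CPM (0.20, -0.0042 to 0.40). The 1 gene past 2-fold was Slc7a11, the cystine-glutamate exchanger, with 48 UMIs in 16 wild type cells and 11 UMIs in 10 db/db cells (-1.19, -2.28 to -0.22). A single wild type cell gave 23 of those 48 UMIs, and without the highest cell of each library the Slc7a11 ratio was -0.54. The 6 measured genes of GABA and glycine handling had a median of -0.040, and none passed 2-fold. The 5 measured retinoid genes outside the rule had a median of 0.093, and the intervals of all 5 took in 0.

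Genes of potassium, water and pH transport lay mostly above 0. Atp1b2, a subunit of a sodium-potassium ATPase, stood at 504 and 583 CPM (0.21, 0.01 to 0.41). Bsg, the chaperone of lactate transporters, stood at 1927 and 2407 CPM (0.32, 0.22 to 0.42), and the water channel Aqp4 at 1514 and 1717 CPM (0.18, 0.07 to 0.30). Aqp4 is a rule marker. Over the 9 measured genes of the list outside the rule, 7 lay above 0, 3 with intervals above 0 and none with an interval below 0, and the median was 0.21.

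Serine synthesis and glycolysis genes leaned to the db/db side. Psat1, an aminotransferase of serine synthesis, had 86 UMIs in 61 wild type cells and 84 UMIs in 49 db/db cells, or 80.1 and 150 CPM (0.90, 0.45 to 1.35). All 3 measured genes of this list lay above 0, with a median of 0.31. Of 17 measured glycolysis and lactate genes, 13 lay above 0 and 6 had intervals above 0, with none below. Pgk1 stood at 330 and 446 CPM (0.44, 0.20 to 0.67), Aldoc at 545 and 733 CPM (0.43, 0.24 to 0.61), and Pfkp at 332 and 439 CPM (0.40, 0.16 to 0.64), while Gapdh (0.05) and Ldha (0.06) were near equal. The glycolysis median was only 0.056, and 0.0069 among members with a marker share of at least 2%. Genes for cytosolic ribosomal proteins lay above 0 in 59 of 76 cases with a median of 0.098, and the same genes had a median of -0.20 in the other kept cells. That median was -0.0031 among members with a marker share of at least 2% and -0.017 without members over 2% rod markers.

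Beyond these lists, Anxa1 showed the highest ratio of any measured gene. Anxa1 (chr19:20373428-20390944 in GENCODE M21, GRCm38) encodes annexin A1, a calcium-dependent phospholipid-binding protein known for limiting inflammation. It had 6 UMIs in 3 of 169 wild type members and 83 UMIs in 37 of 102 db/db members, or 5.59 and 148 CPM. The log2 ratio was 4.73 (3.54 to 6.21), and 5.50 when the highest cell of each library was left out. A UMI was thus found in 1.78% and 36.3% of members, against 0.0795% and 0.488% of the shallower other kept cells. Anxa1 in the other cells stood at 0.493 and 1.82 CPM, so it was higher in db/db there too (log2 ratio 1.88, 1.09 to 2.75).

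Ndufa4l2, a mitochondrial protein induced by hypoxia, had 8 UMIs in 8 wild type cells and 47 UMIs in 16 db/db cells (3.49, 2.40 to 4.79). The db/db cell with Pax2 alone gave 16 of those 47 UMIs, and the ratio was 3.08 without the highest cell of each library. Crip1, a small LIM-domain protein, had 133 and 170 UMIs (1.29, 0.96 to 1.63), but the cell with Pax2 gave 99 of the 170. Without that cell the Crip1 ratio was 0.047 (-0.39 to 0.47). Col9a1, a collagen chain, stood at 662 and 1020 CPM (0.62, 0.46 to 0.78) and in 137 and 78 cells, against -0.58 in the other kept cells. The transcription factor gene Maf had 91 and 87 UMIs (0.87, 0.43 to 1.31) and the glucosyltransferase gene B3glct 35 and 40 UMIs (1.13, 0.44 to 1.83). Hist1h4d (1.01), Borcs8 (1.21), the neuronal noncoding RNA Bc1 (1.20) and AC149090.1 (0.90) were also among the 12 highest genes. AC149090.1, Hist1h4d and Bc1 were also higher in the other kept db/db cells, by 1.56, 0.68 and 0.25 on the log2 scale, as was Anxa1.

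Immediate early genes, which cells switch on within minutes of a stimulus, were lower in db/db Müller glia. Of 25 measured genes 23 lay below 0, 20 had intervals below 0 and none had an interval above 0, with a median of -0.44. The other kept cells had a median of 0.19 for the same genes. Fos stood at 9274 CPM in wild type and 6976 CPM in db/db (-0.41, -0.46 to -0.36), Jun at 5582 and 4113 CPM (-0.44, -0.51 to -0.37) and Egr1 at 2986 and 2332 CPM (-0.36, -0.45 to -0.26). In the other kept cells Fos (-0.47) and Egr1 (-0.33) were lower as well, Jun was near equal (-0.06), and Junb, Dusp1 and Zfp36 were higher by 0.21, 0.36 and 0.48.

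Atf3 had the largest difference in this list. Atf3 (chr1:191170296-191218039) encodes a stress-induced transcription factor. It had 1151 UMIs in 76 wild type members and 278 UMIs in 21 db/db members, or 1072 and 496 CPM. The log2 ratio was -1.11 (-1.31 to -0.92), against 0.31 in the other kept cells. Among members with a marker share of at least 2% the Atf3 ratio was only -0.23. Egr3 stood at 257 and 123 CPM (-1.06, -1.46 to -0.68), and Nr4a1, an orphan nuclear receptor, at 580 and 333 CPM (-0.80, -1.04 to -0.56). Ier3 (-0.07), Btg1 (0.07) and Sgk1 (0.05) had intervals that took in 0.

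Among genes outside the list, Sik1, a kinase induced by cyclic AMP, had 53 UMIs in 28 wild type cells and 4 UMIs in 3 db/db cells (-2.79, -4.72 to -1.35). Dusp5, a phosphatase of ERK, had 167 and 27 UMIs (-1.69, -2.34 to -1.10). Fbxo33, an F-box protein, had 169 and 34 UMIs (-1.38). Gadd45b (-0.79) and Gadd45g (-0.90), growth arrest genes, lay lower too. In the other kept cells Sik1 (0.03), Dusp5 (-0.07) and Fbxo33 (0.10) were near equal.

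The immediate early genes varied widely from cell to cell within each library. The intervals given for them cover counting error only and leave out this spread between cells. After each cell was thinned to 2000 UMIs, which kept 147 wild type and 81 db/db members, a wild type cell held 0 to 231 UMIs of the list with a median of 77, and a db/db cell 0 to 219 with a median of 38. The 2 ranges overlapped almost fully, and the quartiles were 28 and 131 UMIs in wild type and 9 and 104 in db/db. Cells with more immediate early UMIs had somewhat fewer rod UMIs (Pearson r -0.29 over 147 cells and -0.31 over 81 cells, within 1 library each and from the same thinned total). Members under 2000 UMIs gave only 1.02% and 0.351% of their UMIs to the list, against 4.21% and 3.15% for all members.

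**Figure D3:**
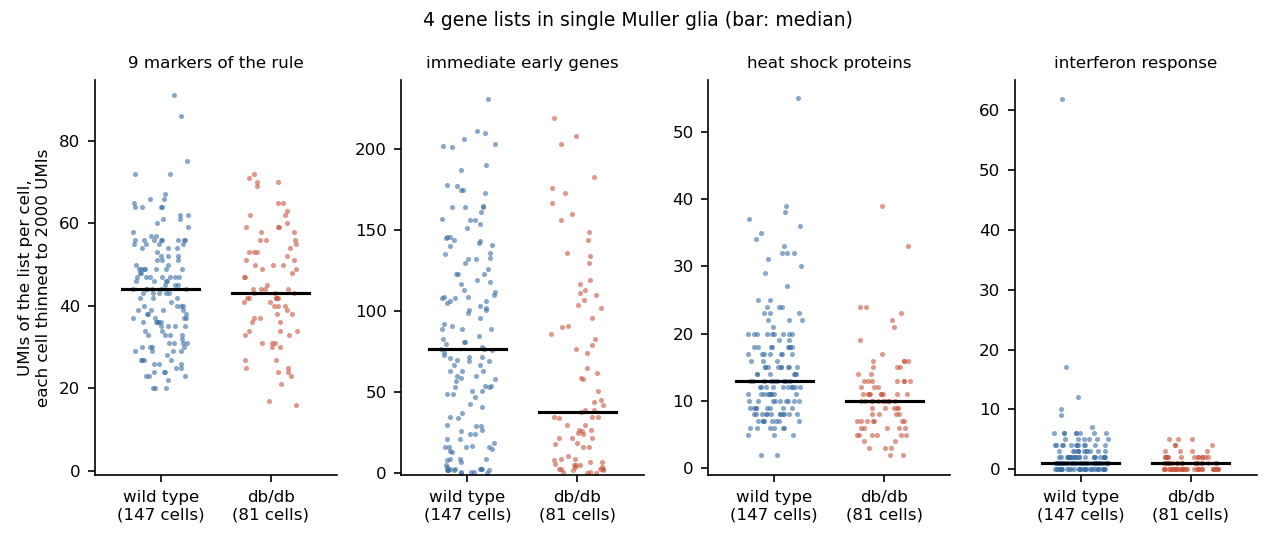
UMIs of 4 gene lists in single Müller glia, each cell thinned to 2000 UMIs; every point is 1 cell and the bar is the median. The rule markers are shown only because the cells were chosen by them (medians 44 and 43). Immediate early genes spread from 0 to over 200 UMIs with medians of 77 and 38, and 1 wild type cell stands alone at 62 interferon UMIs.

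Heat shock genes were lower by a similar amount. Of 12 measured chaperone genes 11 lay below 0, 7 with intervals below 0, and the median was -0.38 against -0.13 in the other kept cells. Hspa1a, the inducible HSP70, stood at 183 CPM in 54 wild type cells and 80.2 CPM in 21 db/db cells (-1.19, -1.69 to -0.72). Dnajb1, its co-chaperone, stood at 789 and 424 CPM (-0.89, -1.11 to -0.68), and Hsp90aa1 at 2499 and 1922 CPM (-0.38, -0.48 to -0.28). Hspd1, of the mitochondrial chaperonin, was near equal (0.00059), and Cryab, an abundant small heat shock protein of glia, stood at 916 and 809 CPM (-0.18). Thinned cells held a median of 13 and 10 UMIs of the list.

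Genes of the interferon response gave the lowest median of the 37 lists. Interferons switch on antiviral genes through factors such as IRF9 that bind a shared promoter element. Of 9 measured genes 8 lay below 0, all 8 with intervals below 0, and 6 were past 2-fold. The median was -1.14 against 0.09 in the other kept cells. A further 13 of the 22 listed genes were not measured. Isg15, Irf9 and Xaf1 had 57, 68 and 52 wild type UMIs against 8, 11 and 10 in db/db. They were measured through wild type alone, so the gene counts and the median depend in part on the UMI minimum. With a minimum of 20 UMIs, also summed over both libraries, the median was -1.06. Among the factors, Irf1 (chr11:53770014-53778374) had 444 UMIs in 80 wild type members and 105 UMIs in 31 db/db members, or 413 and 187 CPM (-1.14, -1.46 to -0.83). Irf9 had 68 and 11 UMIs (-1.69, -2.76 to -0.76).

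Among their targets, Ifit3 had 126 UMIs in 44 wild type cells and 20 UMIs in 18 db/db cells (-1.72, -2.48 to -1.03). Isg15, a ubiquitin-like modifier, had 57 UMIs in 14 cells and 8 UMIs in 4 cells (-1.90, -3.17 to -0.82). Ifitm3 stood at 91.2 and 42.8 CPM (-1.09) and Xaf1 at 48.4 and 17.8 CPM (-1.44). Ifit1 had 39 UMIs in 6 wild type cells and none in db/db, at least 6.79-fold lower when 3 UMIs are taken as the limit of a count of 0. Ifitm2 alone lay above 0 (0.25, -0.57 to 1.04). Ifit3 and Isg15 were lower in the other kept db/db cells too, by -1.52 and -1.60, at levels of at most 2.21 CPM there.

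The interferon UMIs were unevenly spread over cells. A single wild type cell had 206 of the 1319 UMIs of the list, the next highest 71, and the highest db/db cell 23. That wild type cell gave 28 of the 39 UMIs of Ifit1, 41 of 126 of Ifit3 and 24 of 57 of Isg15, but 19 of 444 of Irf1 and 8 of 68 of Irf9. The 5 highest cells of each library held 29.5% of the list's 1319 wild type UMIs and 27.1% of its 306 db/db UMIs. The summed list had a log2 ratio of -1.17, and -1.12 without those 5 cells of each library. After thinning to 2000 UMIs a cell held a median of 1 UMI of the list in both libraries, with a highest cell of 62 in wild type and 5 in db/db, and 34 of 147 and 34 of 81 cells had none.

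The promoters of these genes were searched for the interferon-stimulated response element, spelled here as GAAA, any 2 bases and GAAA, on both strands, overlapping matches counted. The windows run from 250 bases before to 50 bases after each start in RefSeq (GRCm38.p6). A match was present for 11 of the 18 list genes with a window, and for 3.99% of all 27025 genes. Of the 7 measured genes with a window, 4 had a match. The 150 bases before the start are shown for Ifit3 and Isg15, the target genes among the 12 lowest, on the gene's strand with matches in capitals. Ifit3 (chr19:34583379-34583528, plus strand) has its match on the reverse strand and another further upstream; in Isg15 (chr4:156200819-156200968, minus strand) 3 matches overlap.
Ifit3: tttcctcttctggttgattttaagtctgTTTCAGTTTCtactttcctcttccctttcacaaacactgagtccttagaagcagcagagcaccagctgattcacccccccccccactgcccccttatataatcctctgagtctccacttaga
Isg15: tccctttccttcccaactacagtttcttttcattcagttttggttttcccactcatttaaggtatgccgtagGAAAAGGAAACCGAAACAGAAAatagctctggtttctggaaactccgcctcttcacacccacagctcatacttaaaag
Within these windows the CArG box, the binding site of serum response factor, was present for 2 of 24 immediate early genes, Egr2 and Zfp36, and for 1.81% of all genes. The heat shock element, spelled as TTC, any 2 bases, GAA, any 2 bases and TTC, was present for 4 of 12 heat shock genes (Hsph1, Hspe1, Hspd1 and Chordc1) and for 0.662% of all genes. A match describes the letters only.

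**Figure D4:**
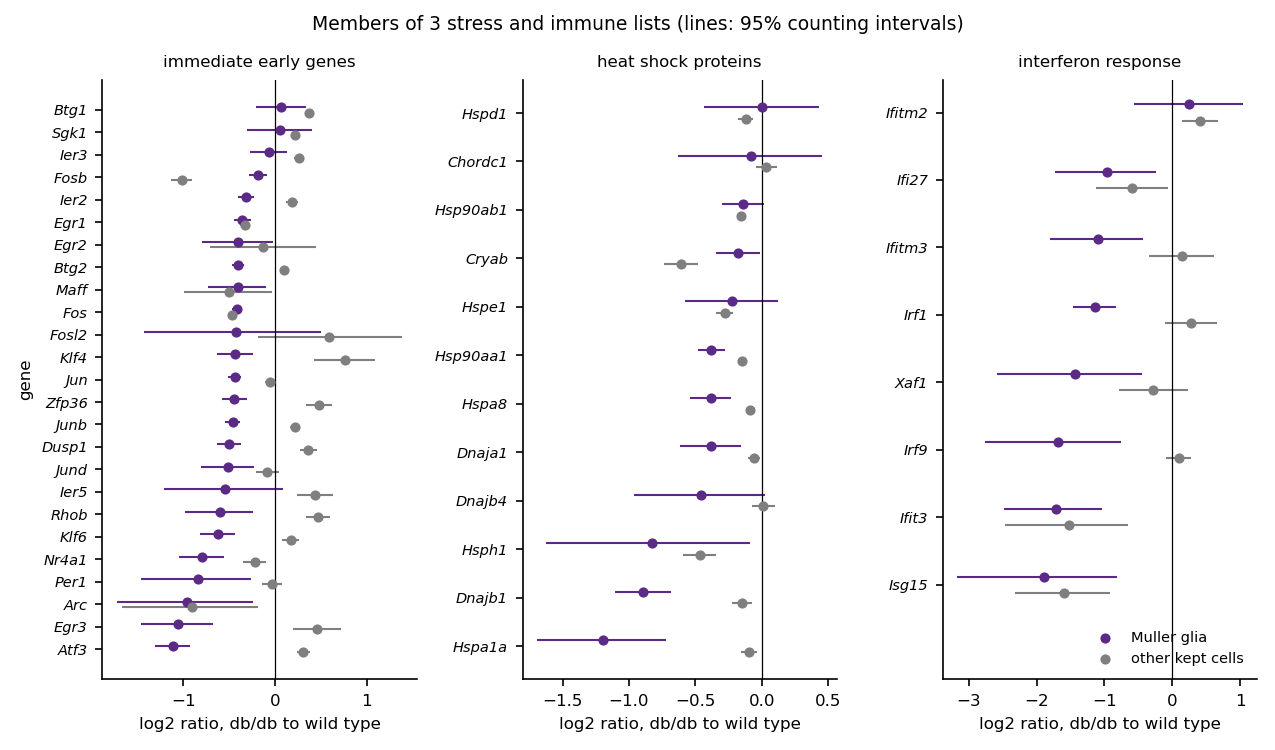
Log2 ratio of db/db to wild type for measured immediate early, heat shock and interferon genes, with 95% counting intervals, in Müller glia (purple) and in the other kept cells (grey). Most Müller points lie left of 0, from -0.07 to -1.11 among the lower immediate early genes, while grey points such as Atf3 (0.31) and Irf1 (0.28) lie right of 0.

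Of 7 measured genes of chemokines and inflammation 5 lay below 0, 2 with intervals below 0 and none with an interval above 0. The median was -0.39, or -0.14 with equal weight per cell. Icam1, the leukocyte adhesion receptor, had 77 UMIs in 26 wild type cells and 8 UMIs in 6 db/db cells (-2.33, -3.59 to -1.28), while in the other kept cells it stood at 4.24 and 8.61 CPM (1.02). Il33, an alarmin that Müller glia make, stood at 310 and 237 CPM (-0.39, -0.69 to -0.09). Vcam1 (0.45) and Tnfaip3 (-0.02) had intervals across 0. The 6 measured MHC genes had 3 above and 3 below 0 and a median of -0.12, which was -0.42 without the bipolar-carrying cells and -0.32 without members over 2% rod markers. Of complement genes outside the rule, Cd59a (-0.12) and Vtn (0.08) were measured, both with intervals across 0.

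Gliosis genes had no common direction. Their 13 measured members split into 6 above and 7 below 0, with a median of -0.0024 and 1 gene past 2-fold, Anxa1. Vim, the intermediate filament vimentin, stood at 659 and 672 CPM (0.03, -0.16 to 0.21). Gfap, the classic filament of reactive glia, had 24 UMIs in 2 wild type cells and 11 UMIs in 3 db/db cells. A single wild type cell gave 22 of the 24, and the db/db cell with Pax2 gave 9 of the 11. Gfap had no UMI in 167 of 169 and 99 of 102 members. Of the cytokine pathway, Osmr, the oncostatin M receptor subunit, stood at 107 and 57.1 CPM (-0.91, -1.52 to -0.33), Socs3 at 775 and 629 CPM (-0.30, -0.48 to -0.12) and Cebpd at 548 and 447 CPM (-0.29, -0.51 to -0.08). S100a11 had 30 and 30 UMIs (0.94, 0.16 to 1.72).

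Of 7 measured growth and trophic factors 6 lay above 0, 4 with intervals above 0, and the median was 0.54. Hbegf, a ligand of the EGF receptor, had 66 UMIs in 34 wild type cells and 61 UMIs in 23 db/db cells (0.82, 0.30 to 1.35), and Igf2 92 and 70 UMIs (0.54, 0.07 to 1.01). Gdf15 had 33 UMIs in 9 cells and 31 UMIs in 3 cells, and Igfbp5 25 and 30 UMIs, of which the cell with Pax2 gave 16. The list median was 0.38 without that cell and 0.17 among members with a marker share of at least 2%. Of 5 measured angiogenic and antiangiogenic factors 1 lay above 0 and 4 below, 3 of them with intervals below 0, and the median was -0.36. Vegfa, the main angiogenic factor of Müller glia, stood at 300 CPM in 97 wild type cells and 439 CPM in 60 db/db cells (0.55, 0.30 to 0.79). Ccn1 stood at 2069 and 1606 CPM (-0.36, -0.48 to -0.25), Ccn2 at 593 and 373 CPM (-0.67, -0.90 to -0.44) and Adamts1, an antiangiogenic protease, at 1406 and 1095 CPM (-0.36, -0.50 to -0.22). Ccn1 (-1.51) and Ccn2 (-2.06) were also lower in the other kept cells.

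Several lower genes followed the bipolar-carrying cells. The 21 wild type and 6 db/db members with 10 or more bipolar UMIs held 56 of 60 and 6 of 7 UMIs of Car10, 51 of 58 and 6 of 7 of Syt4, 60 of 74 and 6 of 11 of Frmd3, and 52 of 62 and 5 of 6 of Snhg11. Without those cells 4, 7 and 14 wild type UMIs of Car10, Syt4 and Frmd3 remained, too few to be measured. By contrast Icam1 (-3.53), Irf1 (-1.39), Atf3 (-1.17) and Sik1 (-2.86) were as low or lower without them, and the median of the immediate early list was -0.58. The same cells held 50 of 169 wild type UMIs of Fbxo33 and 40 of 167 of Dusp5. Without them the Fbxo33 ratio was smaller, -1.20 against -1.38, and the Dusp5 ratio was -1.77. G0s2, an inhibitor of lipolysis, had 78 UMIs in 13 wild type cells and 8 UMIs in 7 db/db cells (-2.35), with 31 of the 78 in 1 cell.

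Of 19 measured glial transcription factors outside the rule 9 lay above and 10 below 0, 3 with intervals above and 5 with intervals below 0, and the median was -0.0035. Lhx2 (-0.14) and Six3 (-0.12) had intervals across 0, Rax stood at 117 and 164 CPM (0.48, 0.08 to 0.88), and Id1 at 410 and 305 CPM (-0.43, -0.69 to -0.17). Of 10 measured Notch genes 8 lay above 0, 2 with intervals above 0, with a median of 0.12, or 0.29 among members with a marker share of at least 2%. Among them were Notch2 (0.69, 0.19 to 1.19) and Hes5 (0.46, 0.09 to 0.83). Above 0 lay 3 of 7 measured Wnt genes outside the rule (median -0.051), 1 of 3 neurogenic genes (-0.027), 5 of 13 receptors (-0.039) and 8 of 15 genes of insulin, IGF and leptin signalling (0.056). Lepr itself, the gene that differs between the genotypes, had no UMI in any member of either library, which allows up to 3 UMIs. A 3′ tag does not read the db change, so this count is no check of the genotype.

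**Figure D5:**
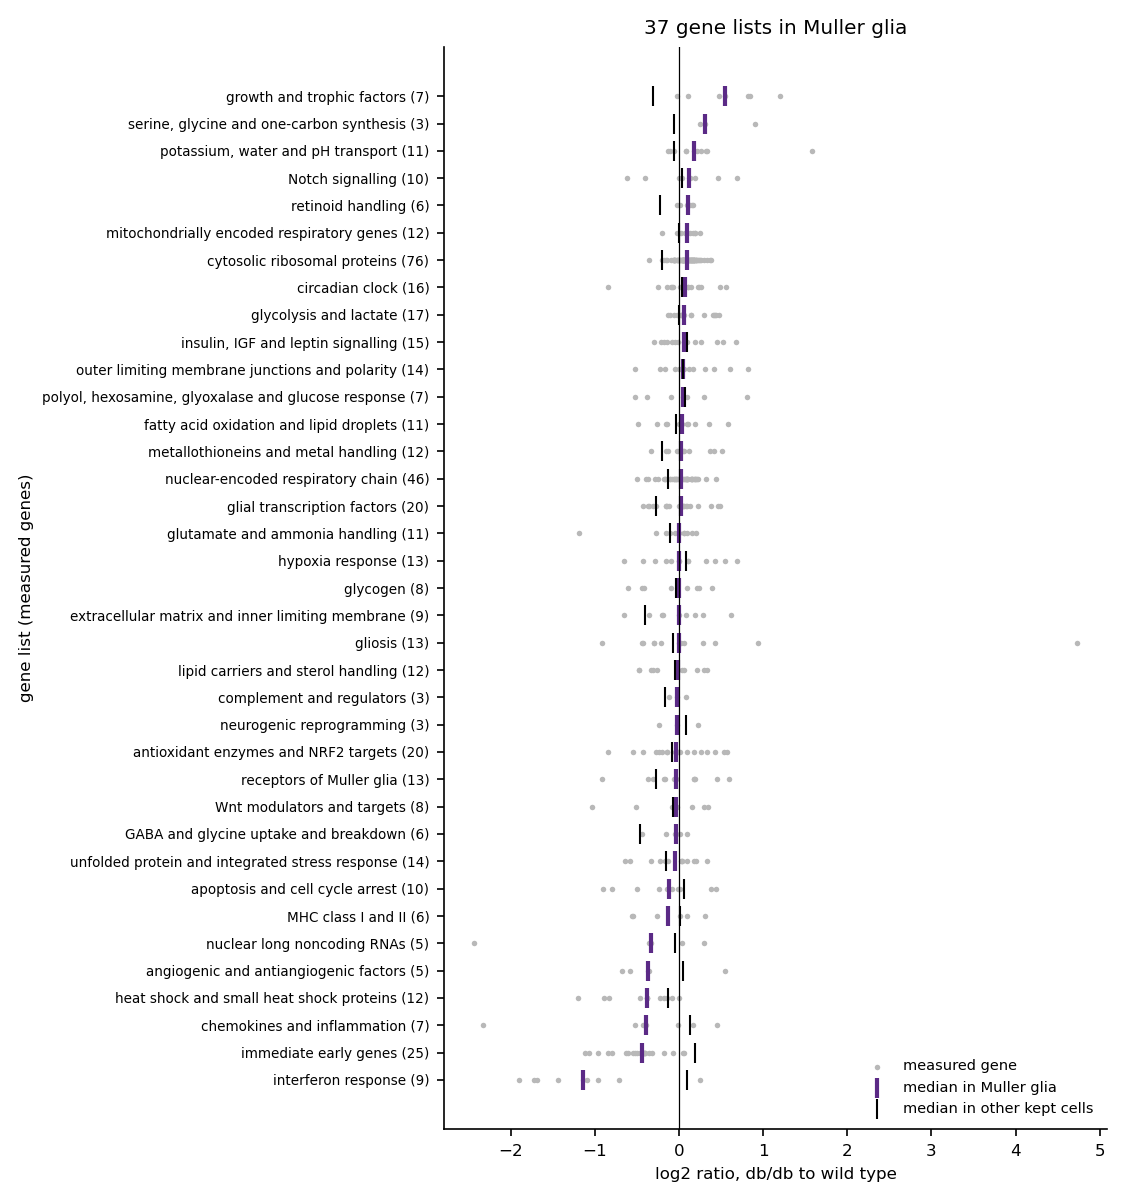
The 37 gene lists ordered by their median log2 ratio of db/db to wild type; grey points are measured genes (their number in brackets), purple bars the median in Müller glia and black bars the median in the other kept cells, with rule markers kept in their lists. Interferon response (-1.14), immediate early genes (-0.44), chemokines and inflammation (-0.39) and heat shock proteins (-0.38) lie at the low end, and growth and trophic factors (0.54) at the top.

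Fos, Jun and Malat1 were among the genes that varied most between members. After thinning to 2000 UMIs, the variance-to-mean ratio over cells had a median of 1.03 in wild type and 0.989 in db/db over all measured genes. Among the 12 genes with the highest ratio, by the lower of the 2 libraries, were Fos (11.3 and 14.0), Jun (7.62 and 9.59), Btg2 (7.22 and 9.78), Ier2 (5.98 and 10.2), Gadd45g (5.82 and 6.26) and the metallothionein Mt1 (6.35 and 6.13). Others were mt-Atp6 and mt-Co2 of mitochondria, the nuclear RNA Malat1, Gm42418 and the histone gene H3f3b. Fos was found in 90.5% of thinned wild type cells and 80.2% of thinned db/db cells, and Gadd45g in 37.4% and 17.3%. H3f3b stood at 5604 and 4013 CPM (-0.48, -0.55 to -0.41), against 0.09 in the other kept cells.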

How the data were processed

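The values are UMI counts per gene and cell in 2 deposited matrices of 32285 genes, made by the authors with Cell Ranger 6.0.1, per the file headers, and against mm10, per the submitters' processing notes; the annotation release and the cell-calling rule are not given in the sources used here. Cells were selected by the stated rule (10308 and 11083 barcodes before filters; 35642274 and 33742189 UMIs). UMIs were summed per library and scaled to CPM; ratios have exact conditional binomial 95% intervals, with a count of 0 set to 3 UMIs. The interval code was tested on simulated data. Named genes are the 12 highest and 12 lowest measured genes by the interval bound nearest 0, at least as high in the higher library as in that library's other kept cells, without mitochondrial, ribosomal protein, haemoglobin and sex-linked genes, gene models named Gm or Rik, and rod, cone and bipolar markers. Müller markers, Lepr, up to 6 members per list with the most UMIs or largest ratio, and the 12 most variable genes were named besides; further genes named were chosen after their values were seen. A few genes that the rule takes are not reported here. The members and lists were chosen with earlier results of these data known. Symbols listed for more than 1 gene in the files, Aldoa and Ddit3, were left out of lists. Scrublet (scanpy 1.11.5) called 0 doublets, so it did not work and doublets stayed in; the 8% highest scores were left out as an alternative. Others were stricter markers or filters, fewer marker genes, leaving out cells with rod, bipolar or Pax2 RNA or of low depth, equal cell weight, thinning, free RNA subtraction, centring, trimmed-mean scaling and other UMI minimums; those on bipolar, Pax2, depth, the highest cell of each gene a 2% or 3% rod limit and lists without rule markers were added after seeing the data.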

Additional observations from a re-analysis of the deposited data

How the results depend on the processing

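All 24 genes taken by the naming rule kept their sign under every alternative in which they were measured, and 13 of the 37 list medians did. The genes higher by 2-fold numbered 21 in the main setting, 83 with equal weight per cell, 11 after thinning to 2000 UMIs per cell, 38 after subtraction of free RNA, 177 with a minimum of 20 UMIs and 3 with a minimum of 200 UMIs. Those lower by 2-fold numbered 67, 37 with a marker share of at least 2%, 139 with equal weight, 20 thinned, 104 with free RNA subtracted, 308 and 8 with minimums of 20 and 200 UMIs, and 113 without the highest cell of each gene. That last setting takes 1 of 102 db/db cells but 1 of 169 wild type cells, a larger part of the db/db cells. Single genes moved both ways under it: Atf3 went from -1.11 to -1.35 and Ifit3 from -1.72 to -1.30. The cause of the changes under these settings was not tested. The share ratio was 0.758 among cells under 3% rod markers, a denominator chosen after seeing the data, and 0.551 to 0.668 under the others. Counts under 100 UMIs carry wide intervals, and 1 library per genotype limits every comparison. No paired analysis was possible because each genotype has 1 library.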

Other observations

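Structural genes of Müller glia were close between the libraries. Of 14 measured junction and polarity genes of the outer limiting membrane 10 lay above 0, with a median of 0.055, or -0.041 with equal weight per cell. Mpp5, a Crumbs partner, had 51 and 47 UMIs (0.82, 0.22 to 1.42), Cd9 stood at 1187 and 1467 CPM (0.31, 0.18 to 0.43), and Crb1 at 357 and 319 CPM (-0.16, -0.43 to 0.10). The 9 measured matrix genes had a median of -0.00024, with Timp3, an inhibitor of matrix proteases, at 1017 and 888 CPM (-0.20, -0.35 to -0.04).

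Other metabolic and stress lists had these medians: lipid carriers and sterol handling (12 measured, -0.015, or -0.13 without the rule markers Clu and Abca8a), glycogen (8, 0.0041), polyol and hexosamine genes (7, 0.049), fatty acid oxidation (11, 0.039), the nuclear-encoded respiratory chain (46, 0.030), metallothioneins (12, 0.030), antioxidant enzymes (20, -0.032), unfolded protein response (14, -0.050), hypoxia response (13, 0.0061), apoptosis and cell cycle arrest (10, -0.11) and circadian clock (16, 0.072). Mitochondrially encoded genes had a median of 0.10, or -0.16 among members with a marker share of at least 2%, with mt-Nd4 the 1 gene whose interval lay below 0 (-0.20). The 5 measured long noncoding RNAs had a median of -0.34, or 0.097 among members with that marker share, with Malat1 near equal (0.03) and Meg3 at 524 and 415 CPM (-0.34, -0.56 to -0.11). Within lists, the sterol gene Idi1 (-0.47, -0.92 to -0.03) was lower, and Per1 (-0.84, -1.46 to -0.26) was the lowest clock gene while Dbp (0.55) and Tef (0.49), output factors of the clock, were higher. Pdgfrb, usually a pericyte gene, was found in 53 and 33 members (59.6 and 98.1 CPM), while Kcnj8 and Abcc9 of pericytes had no UMI. Rgs5, another pericyte gene, had 1 UMI in wild type and 7 UMIs in db/db members, all 7 in the cell with Pax2. The 9 markers of pericytes or smooth muscle summed to 248 and 162 UMIs (0.32, 0.03 to 0.61).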
